A study of Mus musculus with 12 samples.

Results

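RNA was measured in bulk by RNA-seq in 12 mouse rhabdomyosarcoma tumors, and 10 genes of the circadian clock were followed in them, namely *Ciart*, *Per1*, *Per2*, *Per3*, *Arntl*, *Npas2*, *Clock*, *Nr1d1*, *Dbp* and *Cry1*. These are 10 of the 38898 genes in the deposited data, and each passed the filter on low counts that left 17602 genes to test. *Ciart* was chosen by its measured fold change in the combination-treated against the vehicle-treated tumors of these same data, where it was among the lower genes, and the other 9 were taken with it as genes of the same clock. The members' values in that contrast are therefore given as a description, and nothing is read from a test of them there.

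The tumors were grown from Rd76-9, an embryonal rhabdomyosarcoma cell line from a mouse tumor induced by methylcholanthrene, injected into the flank of WT C57/Bl6J mice of 8 to 12 weeks, and were dissected at day 16. The 12 tumors form 4 groups of 3. Vehicle-treated mice (m1, m2 and m3) received saline and empty nanoparticles, although the treatment label of each also names RCM1. The other mice received VCR (vincristine, which blocks microtubule assembly) at 0.25 mg/kg (m4, m5 and m6), the FOXM1 inhibitor RCM1 at 8 µg in folic acid-bearing nanoparticles, RCM1-NPFA (m7, m8 and m9), or both drugs (m10, m11 and m12). All tumors came from 1 cell line and hold host cells as well as tumor cells. In bulk RNA, fewer cells of a type and less RNA per cell cannot be told apart. The time of day at which tumors were collected, on which clock transcripts depend, is not given in the sources used here.

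The circadian clock is a feedback loop of transcription. ARNTL (also called BMAL1) pairs with CLOCK or NPAS2, binds E-box sequences and activates the Per and Cry genes, *Nr1d1*, *Dbp* and *Ciart*. The PER and CRY proteins, and CIART (also called CHRONO), repress that pair, NR1D1 (REV-ERBα) represses *Arntl* through sequences called RREs, and DBP activates genes that carry D-boxes. The same loop runs in most tissues, skeletal muscle among them.

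The letters these factors are known to bind were searched on both strands of the RefSeq promoters of GRCm38.p6, 300 bases from 250 before to 50 after a start site. The promoter table held 13 promoters of 9 members and no promoter of *Per2*. The E-box was searched as CACGTG, the D-box as TTATGNAA and the RRE as TAGGTNA. Among all 32851 promoters, 7.15% held the E-box, 3.38% the D-box and 8.29% the RRE. The 4 promoters below are shown because they held more than 1 match, each 5′ to 3′ on the strand of its gene with the matches in capitals.
Ciart, chr3:95882179-95882478, minus strand: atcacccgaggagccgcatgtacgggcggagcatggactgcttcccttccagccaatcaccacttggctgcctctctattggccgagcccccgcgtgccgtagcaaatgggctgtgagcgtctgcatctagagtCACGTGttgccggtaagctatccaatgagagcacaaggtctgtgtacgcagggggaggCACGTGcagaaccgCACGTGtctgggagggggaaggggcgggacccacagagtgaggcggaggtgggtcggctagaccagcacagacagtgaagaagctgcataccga
Per1, chr11:69098699-69098998, plus strand: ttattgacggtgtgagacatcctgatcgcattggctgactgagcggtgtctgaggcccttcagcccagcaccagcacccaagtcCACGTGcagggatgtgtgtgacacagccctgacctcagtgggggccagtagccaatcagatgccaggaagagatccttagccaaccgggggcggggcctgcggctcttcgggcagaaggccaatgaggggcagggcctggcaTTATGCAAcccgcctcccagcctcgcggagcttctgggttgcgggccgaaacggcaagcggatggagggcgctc
Per3, chr4:151044616-151044915, minus strand: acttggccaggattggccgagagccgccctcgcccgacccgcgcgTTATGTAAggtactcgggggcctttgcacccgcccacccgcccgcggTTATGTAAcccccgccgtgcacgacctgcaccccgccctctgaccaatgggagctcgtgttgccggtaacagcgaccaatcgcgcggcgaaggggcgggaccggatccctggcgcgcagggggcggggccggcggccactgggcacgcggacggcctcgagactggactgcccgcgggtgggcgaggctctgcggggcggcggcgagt
Arntl, chr7:113207261-113207560, plus strand: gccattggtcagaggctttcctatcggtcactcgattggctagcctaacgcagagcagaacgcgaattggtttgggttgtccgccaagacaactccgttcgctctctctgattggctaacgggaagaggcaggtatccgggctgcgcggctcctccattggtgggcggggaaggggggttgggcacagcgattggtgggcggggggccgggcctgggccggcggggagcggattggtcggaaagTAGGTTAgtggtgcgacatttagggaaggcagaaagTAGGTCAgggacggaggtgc

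The *Ciart* promoter held 3 E-boxes, whose first bases lie at -116, -58 and -44 from the start site, and 29 of the 32851 promoters (0.0883%) held at least 3. The *Per1* promoter held an E-box at -166 and a D-box at -24. The *Per3* promoter held 2 D-boxes, at -205 and -158, and the *Arntl* promoter 2 RREs, at -6 and 30. The only other match among members outside these windows was an E-box at -60 in *Cry1*, apart from a second *Arntl* promoter that overlaps the one shown. These matches describe the letters in the windows and do not show binding.

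Library depth was close to even, with 29342195 to 32108055 estimated counts per tumor, and no pair of libraries agreed within sampling noise. Tumors differed in the RNA of skeletal muscle fibers. The summed level of 15 muscle fiber genes, all detected in every group, ran from 42.5 to 164 CPM (read counts relative to the depth of the library, normalized by TMM) in vehicle-treated tumors, from 1698 to 12462 after VCR, from 157 to 18947 after RCM1-NPFA and from 462 to 4618 after both, with the highest sums in m9 and m5. Of 8 myogenic markers, *Cdh15* and *Myf5* had at least 4061 and 1531 estimated counts in every tumor, while *Myod1* was at 0 in 3 tumors (at most 75 counts), *Myog* at 0 in 2 (at most 68) and *Pax7* at 0 in 2 (at most 6). The widest range of counts was that of *Des*, at 231 to 18197, while *Myf6* had 5 to 436 and *Chrna1* 81 to 287. The sum of the 8 markers was 191 to 270 CPM in vehicle-treated tumors and 222 to 818 CPM after RCM1-NPFA, with overlap. After VCR this sum was 404 to 706 CPM and after both drugs 271 to 441 CPM, each without overlap with vehicle. It was highest in m9 (818 CPM) and m5 (706 CPM), as was the muscle fiber sum. The sum of 5 endothelial genes was 113 to 151 CPM in vehicle-treated and 154 to 208 CPM in treated tumors. Leukocyte genes (7 of 7 detected, 615 to 797 CPM) overlapped between groups. Adipocyte genes (7 of 7, 24.7 to 153 CPM) overlapped between vehicle and each treated group. Their sum was 56.9 to 113 CPM after VCR and 36.0 to 51.0 CPM after RCM1-NPFA, without overlap. The sum of 5 keratinocyte genes was low, at 5.04 to 6.58 CPM. Of these, *Krt10* had 150 to 204 estimated counts in every tumor. *Krt5* had at most 9, *Krt14* at most 7 and *Lor* at most 4, and *Krt1* was at 0 in 11 tumors.

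Levels were compared between genes by the deposited TPM (a transcript abundance that is scaled for length and depth), summed per gene. *Nr1d1* had the highest median over the 12 tumors at 29.2 TPM (20.4 to 40.3), followed by *Dbp* at 24.8 TPM (13.3 to 33.0) and *Per1* at 18.2 TPM (10.7 to 43.2). *Arntl* came next at 14.3 TPM (9.51 to 15.7), then *Ciart* at 13.3 TPM (10.6 to 27.8) and *Cry1* at 11.3 TPM (9.08 to 13.1). *Per3* (6.58 TPM, 4.90 to 9.37), *Clock* (6.32 TPM, 4.79 to 7.70) and *Per2* (4.99 TPM, 3.43 to 6.47) were lower. The ranges of all these neighbours overlapped over the tumors. As all genes were measured in the same tumors, this overlap does not show how they were ordered within a tumor. *Per3*, for example, was above *Per2* in every tumor, and the order within tumors was not tested. *Npas2* stood apart at 0.205 TPM (0.0130 to 0.297), with 1 to 23 estimated counts per tumor.

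**Figure D1:**
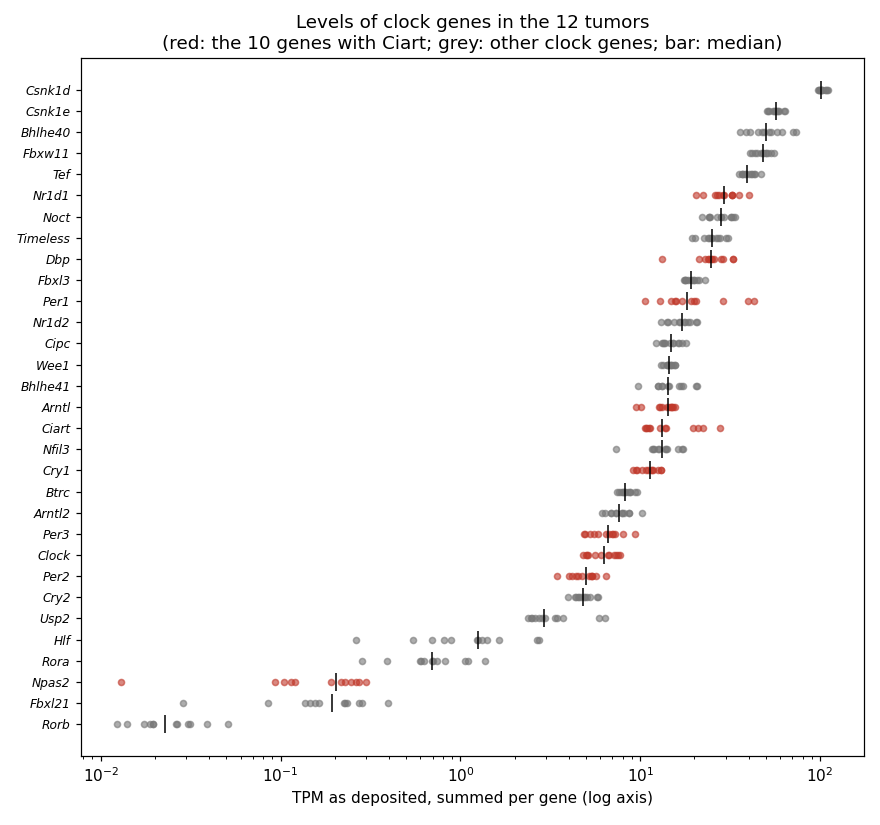
Deposited TPM, summed per gene and on a log axis, of the 10 clock genes (red) and of other clock genes (grey) in each of the 12 tumors, with the median as a bar. Median levels of the 10 genes run from 0.205 TPM for Npas2 to 29.2 TPM for Nr1d1.

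*Ciart*, the repressor of the ARNTL pair, was lower after VCR than after vehicle. Its level was 10.9, 17.8 and 24.8 CPM in the vehicle-treated tumors m1, m2 and m3, against 9.61, 9.83 and 9.46 CPM in the VCR-treated tumors. The groups did not overlap, and the VCR-treated tumors lay close together at 9.63 ± 0.186 CPM (SD, n = 3), while m3 was 2.27 times m1 among the vehicle-treated tumors. Tumors given RCM1-NPFA had 17.4, 17.1 and 11.5 CPM, and those given both drugs 10.1, 8.70 and 9.06 CPM. RCM1-NPFA alone thus overlapped vehicle, and every tumor given both drugs lay below every vehicle-treated tumor. Each of the 6 tumors given VCR had less *Ciart* than each of the 6 not given it, a grouping added after the values were seen. It holds all 6 tumors of the contrast that picked *Ciart*, so its separation is a description from which nothing is read, beside 28 of 17602 genes (0.159%) in the same direction. Of the other 9 members and of 20 other clock genes tested, 0 were separated in either direction (0.312% of all genes, 0.153% in the higher).

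**Figure D2:**
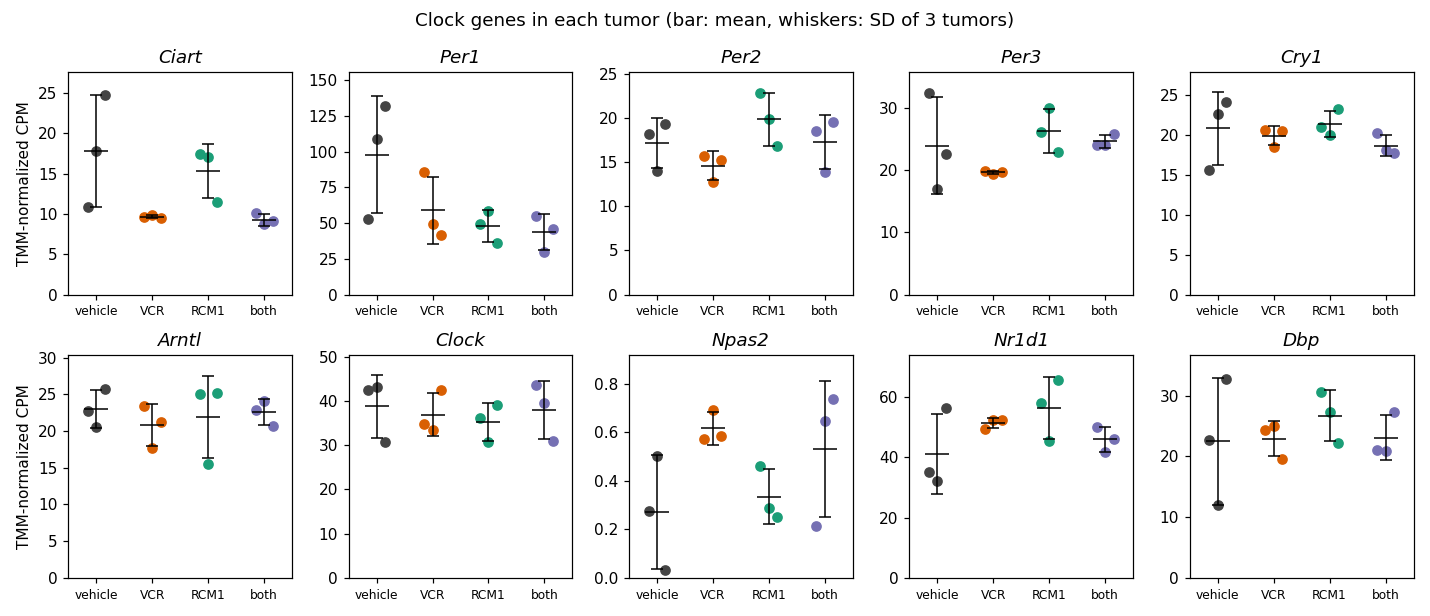
TMM-normalized CPM of the 10 clock genes in each tumor by group (RCM1, RCM1-NPFA; both, VCR+RCM1-NPFA), with the mean as a bar and the SD of 3 tumors as whiskers. Ciart was 9.63 ± 0.186 CPM after VCR and 17.8 ± 6.92 CPM after vehicle.

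Between VCR and vehicle, the log2 fold change of *Ciart* was -0.89 (standard error 0.25), with a 95% interval of -1.43 to -0.35 and an adjusted p of 0.0931 in edgeR's quasi-likelihood test. *Ciart* was the only one of 10 members past the threshold of 0.1, a count of 1 against 977 of 17602 genes (5.55%), of which 484 (2.75%) were lower and 493 (2.8%), no member among them, higher. DESeq2 called *Ciart* as well (adjusted p = 0.0084), among 2285 of 15197 genes (15%). This comparison shares its vehicle-treated tumors with the one in which *Ciart* was picked, so it is not independent of that choice. The adjusted p was past 0.1 without m1, m8 or m9 and not past it without any 1 of the other 9 tumors, where it ran up to 0.321. Without m3 the log2 fold change was -0.58 (adjusted p = 0.154 by edgeR). RCM1-NPFA against vehicle gave -0.22 (standard error 0.24, 95% interval -0.75 to 0.32, edgeR adjusted p = 0.823), and 0.095 without m3. The combination against vehicle gave -0.94 (standard error 0.25).

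The contrast of VCR with RCM1-NPFA holds none of the tumors of the contrast that picked *Ciart*. There the groups did not overlap, and *Ciart* was lower after VCR by a log2 fold change of -0.67 (standard error 0.25, 95% interval -1.21 to -0.13). It did not pass the correction, with an edgeR adjusted p of 0.901 and an unadjusted p of 0.0195. The interaction of the drugs for *Ciart* was 0.17 (standard error 0.35, 95% interval -0.60 to 0.93).

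Over the 12 tumors muscle fiber RNA tended to be higher where *Ciart* was lower, but not within the VCR-treated group. There *Ciart* was 9.46 CPM in m6, 9.61 in m4 and 9.83 in m5, with muscle fiber sums of 1698, 3873 and 12462 CPM. Every tumor given VCR had a muscle sum of at least 462 CPM, and among the others only m9 was above 221 CPM. Muscle RNA and VCR thus cannot be told apart for most tumors. The 4 tumors with the most *Ciart* (m3, m2, m7 and m8, 17.1 to 24.8 CPM) had muscle fiber sums of 42.5 to 221 CPM, and so did m1 (164 CPM) with 10.9 CPM of *Ciart*. Among the other 7 tumors, m9 had the highest muscle sum and the most *Ciart*, at 11.5 CPM, and m12 had 462 CPM of muscle RNA and 9.06 CPM of *Ciart*. The 15 genes made up at most 1.89% of the CPM of a tumor. Without m5 and m9 the log2 fold change of *Ciart* between VCR and vehicle was -0.91, with an edgeR adjusted p of 0.201. The part of muscle, myogenic, endothelial or adipocyte RNA in the level of *Ciart* was not tested.

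**Figure D3:**
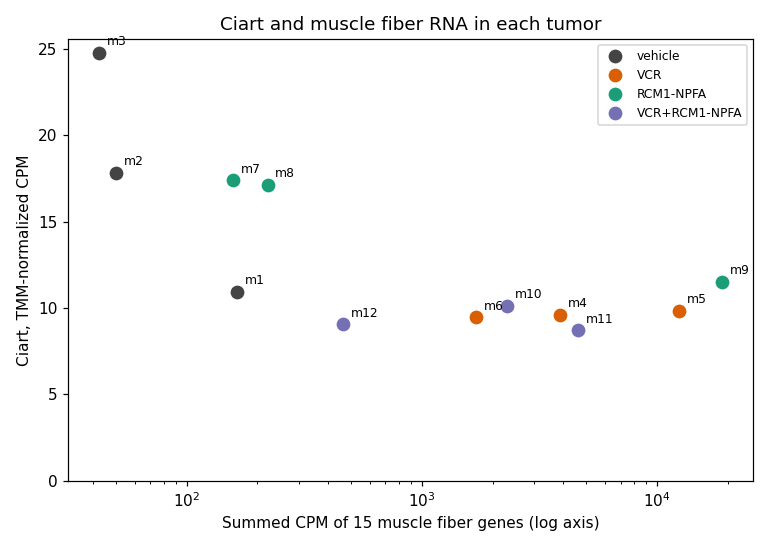
Ciart in TMM-normalized CPM against the summed CPM of 15 muscle fiber genes (log axis), 1 point per tumor, coloured by group. The 4 tumors at 17.1 CPM of Ciart or more have at most 221 CPM of muscle fiber RNA, and m1 (10.9 CPM) lies below them at a like muscle sum.

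*Ciart* lies on the minus strand of chromosome 3 (95878500 to 95882257, GRCm38), and 3749 of its bases are also covered by the antisense transcript *C920021L13Rik*. The kit is a stranded one and the libraries are described as non-stranded, so reads of both strands cannot be told apart where they overlap. *C920021L13Rik* was given 12 to 40 estimated counts per tumor and *Ciart* 269 to 737.

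*Per1*, a repressor of the loop and a gene that also responds quickly to signals such as glucocorticoids, varied most among the well-expressed members, from 29.96 to 132 CPM. Vehicle-treated tumors had 52.7, 109 and 132 CPM and VCR-treated tumors 85.5, 49.1 and 42.0 CPM. Tumors given RCM1-NPFA had 49.2, 58.5 and 36.3 CPM, and those given both drugs 55.0, 29.96 and 45.7 CPM. The high values of m2 and m3 set the vehicle mean, and m1 lay within the range of every treated group, so that no groups were separated. By edgeR its log2 fold change came to -0.73 with VCR (adjusted p = 0.247, standard error 0.35), to -1.03 with RCM1-NPFA (adjusted p = 0.433, standard error 0.36) and to -1.17 with both (standard error 0.36). m2 and m3 were also the vehicle-treated tumors with the most *Ciart*.

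The other Per genes and *Cry1*, which encode repressors too, differed less. *Per2* was 14.0 to 19.4 CPM after vehicle, 12.8 to 15.8 after VCR, 16.8 to 22.9 after RCM1-NPFA and 13.9 to 19.6 after both. *Per3* was 17.0 to 32.4 CPM after vehicle, 19.4 to 19.9 after VCR, 22.9 to 30.04 after RCM1-NPFA and 24.0 to 25.9 after both. Against vehicle, all groups overlapped in both genes, while the VCR-treated tumors lay below the RCM1-NPFA-treated ones. That difference was -0.44 on the log2 scale for *Per2* (standard error 0.17, unadjusted p = 0.0239) and -0.42 for *Per3* (standard error 0.19, unadjusted p = 0.0425), both with an adjusted p of 0.901 in edgeR. *Cry1* stayed between 15.6 and 24.1 CPM, and its log2 fold changes against vehicle ran from -0.16 to 0.039.

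In VCR against RCM1-NPFA, *Ciart*, *Per2* and *Per3* were 3 of 10 members that were lower without overlap, and 5.34% of all genes were. *Npas2* was 1 of 10 that were higher without overlap, against 6.16% of all genes. Of 20 other clock genes tested, 3 were lower and 2 higher without overlap. *Per2* and *Per3* varied together over the tumors (Pearson's r of 0.685), so the 3 members are not separate observations. By edgeR 0 of 10 members and 0 of 17602 genes passed the threshold, while 949 genes (5.39%) had an unadjusted p under 0.05 and DESeq2 called 1 gene (0.00569%), which was no member.

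Among the activators, *Arntl* and *Clock* had small differences and *Npas2* larger ones at very low counts. *Arntl* was 20.5 to 25.7 CPM after vehicle, 17.7 to 23.4 after VCR, 15.5 to 25.2 after RCM1-NPFA and 20.7 to 24.1 after both, and all groups overlapped. *Clock* ran from 30.6 to 43.6 CPM, also with overlap of all groups. Their log2 fold changes against vehicle lay between -0.15 and -0.029 for *Arntl* and between -0.14 and -0.030 for *Clock*, with intervals that included changes of 0.2 in either direction. *Npas2*, which can take the place of CLOCK, had 18 to 21 estimated counts in each VCR-treated tumor and 1 to 15 in vehicle-treated ones. These groups did not overlap. After VCR 2 of 10 members were so separated from vehicle, beside 24.4% of all genes. *Npas2* was the 1 that lay higher, as did 13.5% of genes, and *Ciart* the 1 that lay lower, as did 10.9%. The log2 fold change of *Npas2* after VCR was 1.17 (standard error 0.62, 95% interval -0.19 to 2.53, edgeR adjusted p = 0.289). At these counts it was measured with the widest error of the 10 genes.

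*Nr1d1*, the heme-binding receptor that represses *Arntl*, was 35.2, 32.1 and 56.5 CPM in vehicle-treated tumors. It was 49.5, 52.5 and 52.3 CPM after VCR, 58.1, 45.4 and 65.6 CPM after RCM1-NPFA, and 50.2, 41.9 and 46.1 CPM after both. The vehicle-treated tumor m3 was as high as treated tumors, so the groups overlapped. By edgeR its log2 fold change came to 0.45 with RCM1-NPFA (unadjusted p = 0.0371, adjusted p = 0.474, standard error 0.19), to 0.32 with VCR (adjusted p = 0.350, standard error 0.19) and to 0.16 with both. On leaving out each tumor, the difference after VCR ran from 0.15 to 0.61. The 0.61 was without m3, with an edgeR adjusted p of 0.0571, so the size of the change rests on which tumors are kept. *Nr1d1* shares 1075 bases with *Thra* on the other strand, which ran from 62.7 to 99.8 CPM.

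*Dbp*, an output gene that encodes a D-box factor, was 22.7, 11.9 and 32.8 CPM in vehicle-treated tumors, so that this group spanned all other tumors. They had 19.6 to 24.98 CPM after VCR, 22.2 to 30.7 after RCM1-NPFA and 20.9 to 27.3 after both. Its log2 fold changes against vehicle were 0.029, 0.25 and 0.038 after VCR, RCM1-NPFA and both (standard error 0.28 each). *Dbp* shares 737 bases with *Sphk2* on the other strand.

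**Figure D4:**
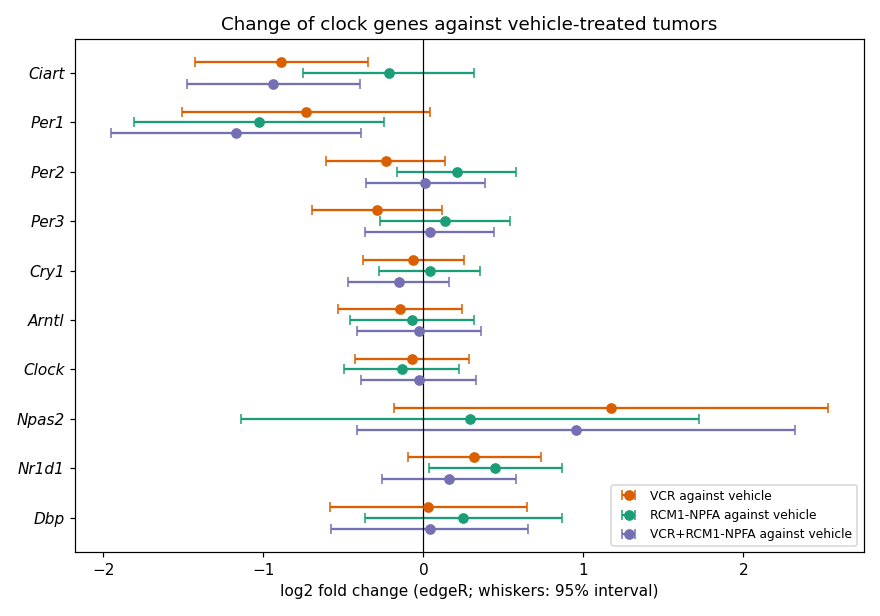
Log2 fold change of the 10 clock genes in each treated group against vehicle by edgeR, with 95% intervals as whiskers. The interval of Ciart after VCR runs from -1.43 to -0.35, and the 3 comparisons share the vehicle-treated tumors.

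Over the members, 1 of 10 was past the threshold after VCR and 0 of 10 after RCM1-NPFA by edgeR. For RCM1-NPFA against vehicle 0 of 17602 genes passed, 1722 (9.78%) had an unadjusted p under 0.05, *Per1* and *Nr1d1* among them, and DESeq2 called 277 (1.58%), no member. There 0 of 10 members were separated, beside 11.4% of all genes (5.56% higher and 5.86% lower). For the combination against vehicle edgeR called 0 genes, with 1286 (7.31%) at an unadjusted p under 0.05, and DESeq2 called 61 (0.393%). *Ciart* was 1 of 10 members that lay lower without overlap there, beside 5.53% of genes, and 0 of 10 lay higher, beside 7.1%. Since *Ciart* was chosen in this contrast, nothing is read from its place in these counts. The interaction of the drugs was past the threshold for 0 of 17602 genes by edgeR, with 2437 (13.8%) at an unadjusted p under 0.05, and for 461 (2.73%) by DESeq2, none of them a member. The median log2 fold change of the members was -0.11 after VCR, 0.087 after RCM1-NPFA and -0.0087 after both, beside 0.0016, 0.0028 and 0.0016 over all genes.

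A further 22 genes of the clock were listed, of which 20 were tested. *Rorb* and *Fbxl21* were not, with at most 9 estimated counts. By edgeR 0 of 20 passed in any comparison. After VCR, 2 had an unadjusted p under 0.05, beside 22.1% of all genes (3892), and *Arntl2*, which can take the place of *Arntl*, was among them (log2 fold change -0.32, standard error 0.12, edgeR adjusted p = 0.166). Among the largest log2 differences after VCR were *Usp2* at 0.77 (standard error 0.38) and *Rora* at 0.42 (standard error 0.37), and after RCM1-NPFA these came to 0.69 and 0.55. *Rora* encodes a receptor that activates through RREs and *Usp2* a deubiquitinase, and *Usp2* was highest in m9 (13.5 CPM) and m5 (13.1 CPM), the tumors with the most muscle fiber RNA. The part of that RNA in its level was not tested. After both drugs *Hlf* was at -1.51 (standard error 0.54, edgeR adjusted p = 0.666) and *Nfil3* at -0.30 (standard error 0.25). *Hlf* encodes a D-box activator and *Nfil3* a D-box repressor. Between VCR and RCM1-NPFA the largest were *Hlf* at 0.90 (standard error 0.52) and the E-box repressors *Bhlhe41* at -0.46 (standard error 0.20) and *Bhlhe40* at -0.46 (standard error 0.22). In the interaction *Hlf* was at -1.33 (standard error 0.75) and *Usp2* at -1.16 (standard error 0.54).

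No relation of the activator *Arntl* with another member passed the test, which at this number of tumors does not show that they were unrelated. In 9 relations over 12 tumors, Pearson's r with *Arntl* ran from -0.32 for *Npas2* to 0.30 for *Clock*, and 0 of 9 passed a threshold of 0.05 after Benjamini-Hochberg adjustment (smallest adjusted p of 0.870 for Pearson's r and 0.349 for Spearman's rho, 2-sided permutation tests). For *Ciart*, r was 0.039 (permutation p = 0.906) and rho 0.17 (permutation p = 0.587), r within groups was -0.079, and r without m8 and m5, the tumors farthest from the *Arntl* median, was 0.36. For *Nr1d1*, r was 0.30 (permutation p = 0.348) and rho 0.53 (permutation p = 0.0786), with 0.60 within groups and 0.63 without m8 and m5. Without these tumors r was 0.61 for *Dbp* and -0.58 for *Npas2*. For *Clock* it turned to -0.28, and rho over all 12 tumors was -0.014. These values thus rest on which tumors are kept. Among all 45 pairs of members, r had a median of 0.019 and ran from -0.74 for *Dbp* and *Clock* to 0.69 for *Per1* and *Ciart*.

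As a description over 12 tumors that share their groups and muscle content, the genes whose log2 CPM was most like that of *Ciart* were *Ahcyl1* (Pearson's r of 0.94), *Emp2* (0.92), *Arnt*, *Nsa2* and *Zfp639* (each 0.91). The most opposite were *Napsa* (-0.94), *Gimap4*, *Rtp3*, *Fbxl13* (each -0.91) and *Magohb* (-0.90). None of these was on the clock lists. Of the 17601 other genes, 5% lay above 0.62 and 5% below -0.65. The clock gene most like *Ciart* was *Bhlhe41* (0.75, rank 276), followed by *Per1* (0.69, rank 512) and *Cry1* (0.61, rank 987).

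**Figure D5:**
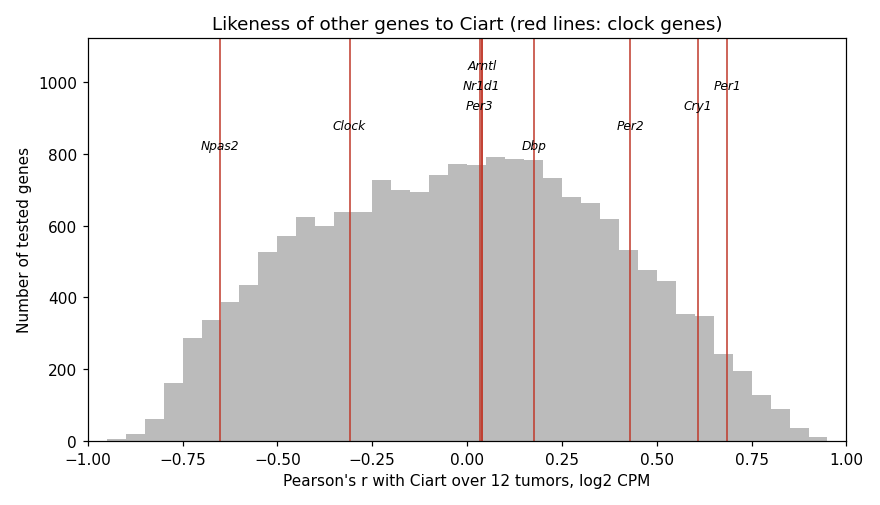
Number of tested genes by Pearson's r with Ciart in log2 CPM over 12 tumors, with the other 9 members marked as red lines. Per1 (0.69) lies in the top 5% and Npas2 (-0.65) in the bottom 5% of genes, and Per3, Nr1d1 and Arntl lie near 0.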

How the data were processed

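Tumors were grouped by their titles. Per the labels and the methods of the study, the authors made poly-A libraries with a stranded kit described as giving non-stranded libraries and assigned reads to GRCm38 transcripts with kallisto. For each transcript the authors deposited an estimated count, not normalized and not whole, and a TPM value. The submitters' processing notes also name DESeq2, of which no output was used here. No version, batch or collection time is given in the sources used here.

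Each of the 120299 transcripts had a gene in RefSeq. Estimated counts were summed per gene and rounded, and TPM was summed per gene. Genes were kept with filterByExpr of edgeR 4.0.16 in R 4.3.3 (minimum count 10). Counts were TMM-normalized and tested by the quasi-likelihood test with all 12 tumors in one fit of 4 groups, and p-values were adjusted by Benjamini-Hochberg over all genes tested with a threshold of 0.1. The contrasts were each drug and both drugs against vehicle, VCR against RCM1-NPFA, and the interaction. Depth was 29342195 to 32108055 counts per tumor. The intervals of fold changes come from the spread between tumors. Correlations used log2 CPM with a pseudocount of 0.1 and 100000 permutations (Python 3.11.15, numpy 2.4.6, scipy 1.17.1, pandas 2.3.3), and figures matplotlib 3.10.9. The scripts were tested on simulated data.

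The members, the list of 22 other clock genes and the marker lists (myogenic, muscle fiber, adipocyte, keratinocyte, leukocyte, endothelial) were chosen with earlier results of these data known. Named are all 10 members, the 5 genes most and the 5 least like *Ciart* by Pearson's r, and of the other clock genes those past the threshold or else the 3 with the largest log2 fold change, and *Arntl2* was named after its values were seen. The values of 1 other clock gene are not reported here. Alternatives were DESeq2 1.42.0 (Wald test and size factors), limma-voom (limma 3.58.1), no filter on low counts, only the groups compared, a threshold of 0.05, a pseudocount of 1, deposited TPM and leaving out each tumor. Leaving out m5 and m9 together, and grouping the 6 tumors given VCR, were added after seeing the data. Promoters are from RefSeq (GRCm38.p6).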

Additional observations from a re-analysis of the deposited data

Results flagged for a closer look

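*Nr1d1* stood out because every tumor given a single drug lay above the vehicle mean and every tumor given both drugs lay below the mean of either drug alone, although single tumors of these groups overlapped. Against the vehicle mean, all 3 VCR-treated tumors were higher, by 0.36 on average in log2 CPM, while against the RCM1-NPFA mean all 3 combination-treated tumors were lower, by an average difference of -0.28. The effect of VCR with RCM1-NPFA minus that without it was -0.64. In the same way all 3 RCM1-NPFA-treated tumors lay above the vehicle mean (0.48 on average) and all 3 combination-treated tumors below the VCR mean (-0.16), which gives the same -0.64. In edgeR the interaction was -0.61 (standard error 0.27, unadjusted p = 0.0441) and did not pass the correction, with an adjusted p of 0.351. The 4 effects share tumors, and the vehicle-treated tumor m3 (56.5 CPM) lay above the mean of each treated group.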

How the results depend on the processing

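Between VCR and vehicle, 1 of 10 members (*Ciart*) was past the threshold, and 0 were at a threshold of 0.05, by limma-voom (adjusted p = 0.138), with only the 2 groups compared in the fit (edgeR adjusted p = 0.143) and without m5 and m9 together (edgeR adjusted p = 0.201), an alternative added after seeing the data. Leaving out each tumor gave 0 to 1 members, where the 1 without m3 was *Nr1d1*, and the log2 fold change of *Ciart* stayed between -1.14 and -0.58. The adjusted p of *Ciart* over the other alternatives ran from 0.0084 (DESeq2) to 0.143. Of the 20 other clock genes 0 passed between VCR and vehicle, against 1 by DESeq2 (*Arntl2*) and 1 with only the groups compared, and 0 to 1 on leaving out a tumor (1 without m9). DESeq2 called 15% of all genes there, against 5.55% by edgeR. In the combination against vehicle the count of members was 1 by DESeq2 (*Ciart*) and 0 by edgeR, given as a description because *Ciart* was chosen in that contrast. The causes were not tested.

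Of 894 alternative values of single genes and relations, 829 kept direction and side of the threshold, 13 fell short of it, 2 passed it newly and 50 turned sign, each of the 50 on a value with no call. All 13 that fell short were alternatives for *Ciart* between VCR and vehicle, the only one of these values that had been called. Most of the 829 were values with no call that stayed so. Without m5 and m9 the log2 fold change became -0.041 for *Dbp* after VCR, -0.024 for *Cry1* after RCM1-NPFA, and 0.13 for *Arntl* and 0.0044 for *Cry1* between VCR and RCM1-NPFA, and with deposited TPM the r of *Arntl* and *Per3* was 0.13. On leaving out each tumor, log2 fold changes that turned sign ran after VCR over *Clock* -0.21 to 0.00079, *Dbp* -0.29 to 0.40 and *Cry1* -0.23 to 0.057, after RCM1-NPFA over *Ciart* -0.47 to 0.10, *Per3* -0.069 to 0.41, *Arntl* -0.18 to 0.13, *Npas2* -0.22 to 1.04, *Dbp* -0.057 to 0.63 and *Cry1* -0.13 to 0.16, after both drugs over *Per2* -0.13 to 0.15, *Per3* -0.17 to 0.32, *Arntl* -0.11 to 0.060, *Clock* -0.17 to 0.10, *Nr1d1* -0.00065 to 0.45 and *Dbp* -0.27 to 0.41, between VCR and RCM1-NPFA over *Per1* -0.077 to 0.47, *Arntl* -0.27 to 0.031 and *Clock* -0.060 to 0.14. For r with *Arntl* the ranges were *Ciart* -0.25 to 0.38, *Per1* -0.25 to 0.13, *Per2* -0.048 to 0.57, *Per3* -0.21 to 0.40 and *Dbp* -0.056 to 0.35.

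No paired analysis was possible because the tumors are numbered 1 to 12 with no number shared between groups. With 3 tumors a group, the standard errors of the members between VCR and vehicle ran from 0.14 to 0.62 on the log2 scale, the latter for *Npas2*. No batch or collection time is given in the sources used here.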

Other observations

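The estimated counts of some members were divided among several RefSeq transcripts, and the division varied between tumors. Depending on the tumor, the transcript with the most reads held 0.111% to 92.3% of the counts of *Per3* and 2.18% to 93.1% of those of *Clock*. Its share was 12.2% to 47.8% for *Arntl*, 48.4% to 69.0% for *Ciart* and 55.8% to 99.8% for *Per2*. For *Cry1* the share was 91.5% to 100%, and *Nr1d1* has 1 transcript in the files. The *Clock* transcripts number 13 and those of *Arntl* 21, and most of these overlap in sequence, so that the share given to each is an estimate. Beside *Ciart*, *Nr1d1* and *Dbp*, *Arntl* shares 2394 bases with an antisense gene, and 41014 of the 47690 bases of *Per3* overlap *Camta1* on the same strand.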
